A study of Mus musculus with 18 samples.

Results

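The Hox cluster genes were taken as every gene of the table whose symbol is Hoxa, Hoxb, Hoxc or Hoxd followed by a number, which gave 39 of 21937 genes, of which 38 are described here. The HoxA cluster on chromosome 6 held 10 of the 38, HoxB on chromosome 11 held 10, HoxC on chromosome 15 held 9 and HoxD on chromosome 2 held 9. They were measured by RNA sequencing of NIH3T3 cells, an established mouse fibroblast line, sampled at 9 times, 4 h apart, through 32 h. Every culture had received 100 nM dexamethasone, a glucocorticoid drug used to bring the clocks of cultured cells into step, for 2 h until a change to normal medium. That change was 0 h, so the 0 h libraries are those taken right at the end of the pulse, and no untreated library was among the samples. Each time had 2 libraries, replicate 1 and replicate 2, and the labels do not say whether these were separate cultures, so p-values measure only the spread between these libraries. All results are of 1 cell line under 1 treatment, and time since the pulse cannot be told apart from time in the new medium.

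Hox genes encode homeodomain transcription factors that give cells their position along the head-to-tail axis and along the limbs. Within a cluster the genes lie in order of their number, and genes with the same number in different clusters, the paralogs, descend from 1 ancestral gene. Low numbers, at the 3′ end of a cluster, act towards the head, and high numbers, at the 5′ end, act towards the tail and the limb tips. Fibroblasts keep a pattern of active Hox genes that reflects where in the body they came from, and HOX proteins bind DNA together with TALE cofactors such as the MEIS proteins.

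Depth ran from 25.4 to 38.9 M gene reads per library. Levels are the authors' normalized reads, which are read counts divided by 1 factor per library, and paired values below are those of replicate 1 and replicate 2. All 9 fibroblast markers examined, among them Col1a1 and Vim, were strongly expressed, with a sum of 853910 to 1230100 normalized reads per library, while the epithelial list summed to 46.0 to 75.9, the endothelial list to 37.4 to 101, the leukocyte list to 155 to 276 and the neural list to 247 to 717. The defining genes Epcam, Ptprc, Rbfox3 and Sox10 had means of 0.369, 2.13, 0.152 and 0.619, and Cd3e, Kdr and Myod1 had no read. Single genes of these lists were expressed, with means of 425 for Tubb3, 224 for Cd68, 60.2 for Krt14, 38.9 for Cdh5 and 20.9 for Pecam1. Acta1, a muscle actin, ranged from 878 to 6829 across the libraries and made up nearly all of the skeletal muscle sum; the part of these genes in the Hox values was not tested.

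A short stretch of 3 of the 4 clusters carried nearly all Hox reads. The 13 described members averaging 10 or more normalized reads, called active here, were Hoxa2 to Hoxa7, Hoxc4 to Hoxc6, Hoxd3, Hoxd4, Hoxd8 and Hoxd9, which are 6 of 10 HoxA genes, 3 of 9 HoxC genes, 4 of 9 HoxD genes and 0 of 10 HoxB genes. In each of HoxA, HoxC and HoxD they formed 1 unbroken run of neighbouring members. These 13 genes took all but 254 of the 48908 reads that the 38 genes had in the 18 libraries, and their means ranged from 66.2 for Hoxa6 to 566 for Hoxd8. The remaining 25 members divided into 16 with at least 1 read and 9 with none. The 9 were Hoxa10, Hoxa11, Hoxa13, Hoxb1, Hoxb7, Hoxb8, Hoxb13, Hoxc12 and Hoxd12. A count of 0 in all libraries allows up to 3 reads, or a mean of 0.165 normalized reads, counting error only.

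**Figure D1:**
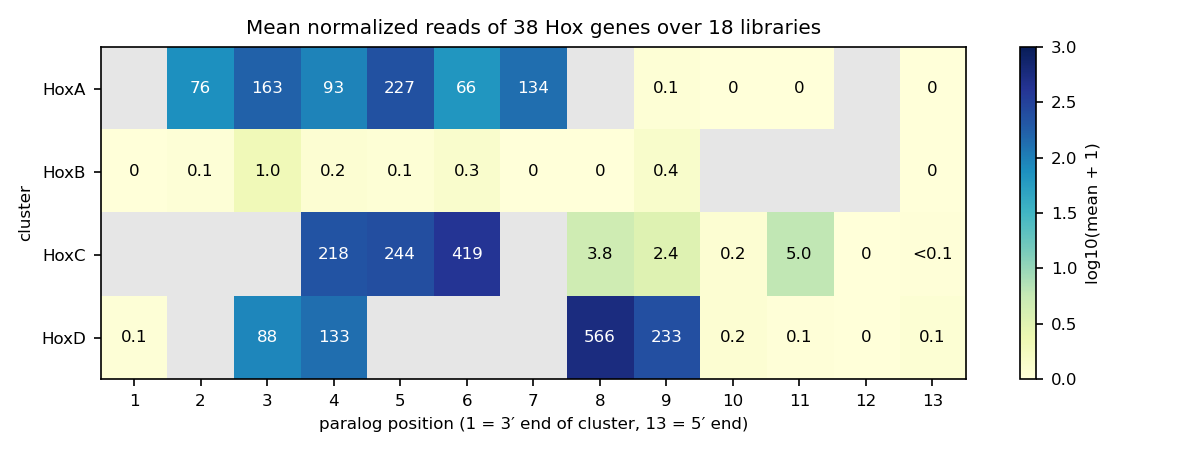
Mean normalized reads of 38 Hox genes over 18 libraries, with clusters down the page and paralog position from 1 to 13 across; shading is log10(mean + 1) and grey squares are positions not described. The dark squares are the 13 members between 66.2 and 566, and no gene at positions 10 to 13 and no HoxB gene reached 10.

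The gap between the members above and below the mean of 10 was wide. The lowest member above it, Hoxa6, averaged 66.2, and the highest below it, Hoxc11, averaged 4.98, with a range of 0 to 9.69 and 90 reads in 17 of 18 libraries. Hoxc8 averaged 3.76, with 70 reads spread over all 18 libraries, and Hoxc9 averaged 2.36, with 43 reads. All 3 are HoxC genes on the 5′ side of Hoxc6. Outside HoxC the silent part of the clusters was nearly empty, with 2 reads for the 4 HoxA genes, 7 reads for the 5 HoxD genes and 38 reads for all 10 HoxB genes together. Hoxb3 averaged 1.04 and was the highest HoxB gene. Hoxb3 and Hoxb2 overlap an antisense RNA over 70.5% and 58.5% of their transcripts, and the labels' protocol names only a standard single-end library, so reads of the opposite strand cannot be told apart.

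By paralog position the active genes reached number 9 and stopped there. Position 4 had 3 active members of 4 (Hoxa4, Hoxc4 and Hoxd4), positions 3, 5 and 6 had 2 of 3 each, and position 9 had 1 of 4. None of the 12 members at positions 10 to 13 was active. The 5′ limit differed by cluster: it lay after Hoxa7 in HoxA, after Hoxc6 in HoxC and after Hoxd9 in HoxD. In HoxD the limit was also seen at the 3′ end, where Hoxd1, its only member before Hoxd3, had 1 read in 1 library.

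The promoters on both sides of the HoxA and HoxD limits are shown because neighbouring genes differed there between clear expression and almost no read. Hoxa7, the last active HoxA gene, averaged 134, and Hoxa9, the next member, averaged 0.106. Hoxd9, the last active HoxD gene, averaged 233, and Hoxd10, the next, averaged 0.161. The sequences are RefSeq's, of build GRCm38.p6, 250 bases before to 50 bases after the start of each gene, written 5′ to 3′ on the gene's own strand with every CG dinucleotide in capitals.
Hoxa7 (chr6:52218524-52218823, minus strand): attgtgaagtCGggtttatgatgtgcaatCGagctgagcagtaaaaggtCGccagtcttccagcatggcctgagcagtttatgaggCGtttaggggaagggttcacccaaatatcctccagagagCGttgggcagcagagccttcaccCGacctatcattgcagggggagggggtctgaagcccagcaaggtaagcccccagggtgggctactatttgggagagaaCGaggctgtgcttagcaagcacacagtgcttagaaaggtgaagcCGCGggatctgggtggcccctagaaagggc
Hoxa9 (chr6:52227321-52227620, minus strand): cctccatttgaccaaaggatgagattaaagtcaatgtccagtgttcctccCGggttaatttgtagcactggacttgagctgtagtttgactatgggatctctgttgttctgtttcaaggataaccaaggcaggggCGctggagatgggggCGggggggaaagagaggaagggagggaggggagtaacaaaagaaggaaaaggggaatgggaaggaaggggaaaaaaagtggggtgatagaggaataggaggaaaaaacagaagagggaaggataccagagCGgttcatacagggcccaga
Hoxd9 (chr2:74697513-74697812, plus strand): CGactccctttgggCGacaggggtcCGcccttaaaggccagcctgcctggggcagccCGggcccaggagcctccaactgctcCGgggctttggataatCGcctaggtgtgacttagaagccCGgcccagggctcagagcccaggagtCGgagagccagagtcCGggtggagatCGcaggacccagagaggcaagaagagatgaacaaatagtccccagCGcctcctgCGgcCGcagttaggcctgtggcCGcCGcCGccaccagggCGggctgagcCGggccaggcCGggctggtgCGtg
Hoxd10 (chr2:74691641-74691940, plus strand): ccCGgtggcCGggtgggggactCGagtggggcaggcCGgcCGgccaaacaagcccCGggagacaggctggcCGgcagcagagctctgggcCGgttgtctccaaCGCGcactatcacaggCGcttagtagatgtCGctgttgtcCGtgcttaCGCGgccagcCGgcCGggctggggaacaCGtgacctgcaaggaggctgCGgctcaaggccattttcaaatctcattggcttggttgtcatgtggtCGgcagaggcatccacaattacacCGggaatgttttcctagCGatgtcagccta
The silent Hoxd10 had 22 CG dinucleotides in this window and the active Hoxd9 had 20, while the active Hoxa7 had 9 and the silent Hoxa9 had 4. RefSeq promoters were found for 22 of the 38 genes. The 10 active members among them had a median of 14.5 CG dinucleotides, the 14 promoters of the 12 members with a mean below 10 also had a median of 14.5, and all 32851 promoters of the table had a median of 7. The motif TATAAA was present in 1 of the 10 and 3 of the 14 promoters, against 13.6% of all promoters, and CACGTG, an E-box of the kind that clock proteins bind, in 1 of the 10 and 4 of the 14, against 7.15%. Hoxd4 was the active member that held both; each motif was searched on both strands, and a match describes these letters in this window only.

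Levels of different members were compared as normalized reads per kb, using the length of the longest annotated RefSeq-matched transcript. On this length Hoxc6 had the highest level, 265 ± 50.8 reads per kb (SD over 18 libraries), and Hoxd8 followed with 215 ± 13.4. Hoxc6 lay above Hoxd8 in 14 of the 18 libraries, with a mean difference below its own SD. That SD includes change over time, so it cannot show whether this order is within the spread between libraries. Hoxc6 had its lowest value, 183 reads per kb, in a 0 h library, below every Hoxd8 value (189 to 235). Hoxc6 had its highest value, 362, in a 32 h library, above every Hoxd8 value. Hoxd8 lay above the third gene, Hoxa5, in all 18. Hoxa5 (121), Hoxc4 (110), Hoxd9 (109), Hoxc5 (83.4), Hoxa6 (75.7), Hoxa7 (66.8), Hoxa3 (63.0), Hoxa4 (58.1), Hoxd4 (51.8), Hoxa2 (42.8) and Hoxd3 (29.6) came after, in reads per kb. Neighbours in this order from Hoxa5 to Hoxd9 and from Hoxc5 to Hoxd3 differed by less than the larger SD of each pair, which again includes change over time. Each lay above the next in 10 to 13 of 18 libraries, while Hoxd9 lay above Hoxc5 in all 18. The order depends on the length taken: by normalized reads 3 of the 13 genes kept their rank, with Hoxd8 (566) above Hoxc6 (419), and per kb of the union of all annotated exons 4 kept it, again with Hoxd8 (206) above Hoxc6 (174).

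Reads of several members may come partly from overlapping RNAs. On the annotated transcripts RNAs of the opposite strand covered 28.8% of Hoxa7, 25.6% of Hoxa3, 16.0% of Hoxa4 and 11.7% of Hoxd3. RNAs of the same strand covered 88.0% of Hoxd3, 45.1% of Hoxd4, 15.0% of Hoxa2 and 10.1% of Hoxa3. The genes overlapping Hoxd3 were Gm28230, Hoxd3os1 and Hoxd4, the last of them an active member itself. Gm28230 also overlapped Hoxd4. The part of Hoxd4 in the Hoxd3 values was not tested. No overlapping RNA of either strand covered Hoxa5, Hoxa6, Hoxc4, Hoxc5, Hoxc6, Hoxd8 or Hoxd9. The values of Hoxd3 and Hoxd4, and to a smaller degree those of the other covered genes, are uncertain for this reason.

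The second question was how the active Hox genes moved after the pulse. The sum over the 38 genes was 3127 and 2924 normalized reads at 32 h, against 2035 and 2124 at 0 h. The normalized totals of all genes were 30.0 and 30.4 M at 32 h, against 35.1 and 34.9 M at 0 h, so the difference was larger per M reads, with 104 and 96.1 at 32 h, against 58.0 and 60.9 at 0 h. In bulk RNA, more cells of a kind and more RNA per cell cannot be told apart. Of the 13 active members, 8 differed among the 9 times by a moderated F test in limma, against 52.0% of all 12393 tested genes. The 8 were Hoxa2 to Hoxa7 and Hoxc4 and Hoxc6, with 0 of 4 HoxD genes among them. Without both 0 h libraries, an alternative added after seeing the data, the 4 members Hoxa3, Hoxa4, Hoxa5 and Hoxa7 were called, and without those of 0 h and 4 h the 3 genes Hoxa3, Hoxa5 and Hoxa7. The difference between clusters was not itself tested.

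Against 0 h, nearly all called changes of Hox genes were increases. At 32 h 9 of 13 members were called, all higher, against 40.8% of all genes called, 20.5% higher and 20.4% lower. The median of the 13 was 0.47 log2, against 0.01 for all tested genes, with 1.06 for the 6 HoxA genes, 0.39 for the 3 HoxC genes and 0.20 for the 4 HoxD genes. At 4 h 4 members were called, 3 higher and 1 lower, against 21.5% of all genes, 11.0% higher and 10.5% lower. The counts were 4 at 8 h, where 34.4% of all genes were called, 5 at 12 h (36.2% called) and 8 at 16 h (36.5% called), or 5 without 16 h replicate 1. They were 10 at both 20 h (38.6% called) and 24 h (37.2% called) and 6 at 28 h (39.8% called), all of them higher. The shares of all genes called higher over these 6 times were 17.3%, 18.1%, 18.7%, 19.6%, 18.6% and 19.8% in the same order. All these comparisons share the same 2 libraries at 0 h. With the libraries rescaled to equal totals instead, the median of all genes shifted by 0.03 log2 at 4 h and by 0.19 and 0.21 at 16 h and 32 h, and directions are therefore relative to the deposited scaling. Under equal totals 11 of the 13 members were called higher at 32 h and no called member changed direction.

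**Figure D2:**
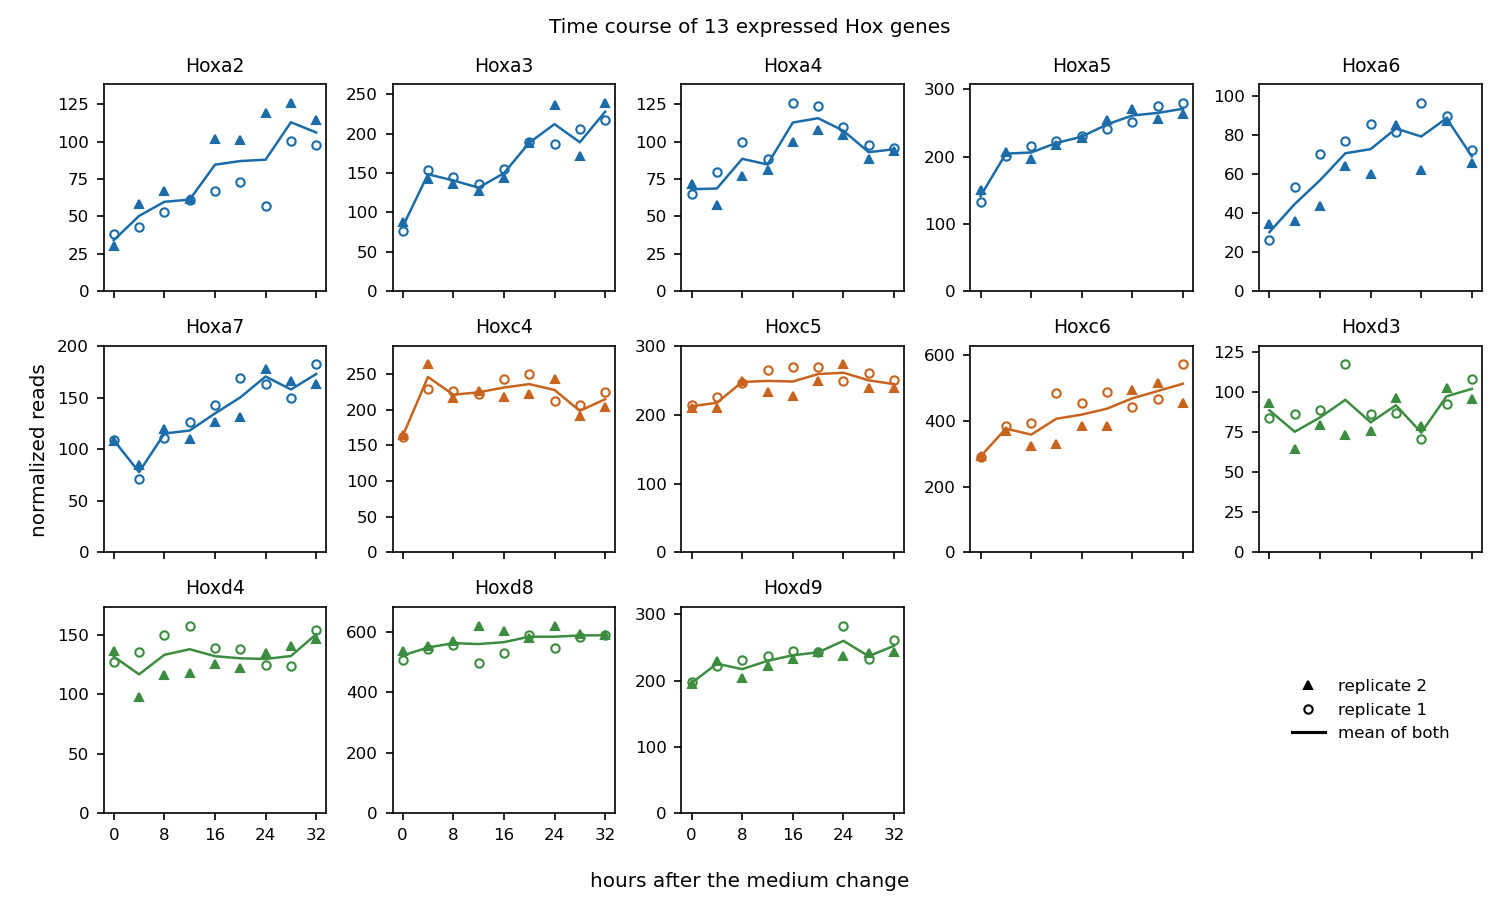
Normalized reads of 13 active Hox genes against hours after the medium change, 1 panel per gene, with filled triangles for replicate 2, open circles for replicate 1 and lines for their mean; HoxA is blue, HoxC orange and HoxD green. Hoxa7 stands lowest at 4 h, with 70.7 and 85.0, and Hoxa5 lies above its 0 h values in all later libraries.

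Hoxa5, which patterns the lung and the neck and upper thoracic skeleton in the mouse, had a higher mean at each successive time. It had 133 and 149.7 normalized reads at 0 h, followed every 4 h by 202 and 207, 216 and 197, 223 and 217, 231 and 228, 242 and 254, 252 and 270.2, 275 and 255, and 279 and 263 at 32 h. The libraries of 32 h, with 279 and 263, lay well above those of 0 h, and all 16 later libraries exceeded both at 0 h. Its log2 difference from 0 h was 0.53 ± 0.10 (adjusted p = 0.0017) at 4 h and 0.94 ± 0.10 (adjusted p = 3.94e-06) at 32 h, in limma on log2(normalized reads + 1) with Benjamini-Hochberg adjustment over all tested genes, as for every adjusted p below. This scale understates the change of genes with few reads. Of the overlapping RNAs in the annotation, none covered this gene.

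Hoxa3, needed for the thymus and parathyroid, and Hoxa2, which patterns the second pharyngeal arch, showed the largest differences at 32 h. Hoxa3 had 217 and 239 normalized reads at 32 h and 154 and 143 at 4 h, against 75.9 and 87.9 at 0 h. Hoxa2 had 97.8 and 114 at 32 h and 42.6 and 57.9 at 4 h, against 37.9 and 30.2 at 0 h. In both genes all 16 later libraries lay above both libraries of 0 h. The log2 difference of Hoxa3 was 0.85 ± 0.14 (adjusted p = 0.000687) at 4 h and 1.47 ± 0.14 (adjusted p = 1.37e-06) at 32 h, and that of Hoxa2 was 0.54 ± 0.31 (adjusted p = 0.232) at 4 h and 1.61 ± 0.31 (adjusted p = 0.000793) at 32 h. Hoxa2 was thus called at 32 h and not at 4 h.

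Hoxa4 and Hoxa6, which pattern the vertebral column, were called at 32 h and not at 4 h. Hoxa6 had 72.4 and 65.7 normalized reads at 32 h and 85.7 and 60 at 16 h, against 26.2 and 34.3 at 0 h. Hoxa4 had 95.9 and 94 at 32 h and 126 and 99.9 at 16 h, against 65 and 71.4 at 0 h. All 16 later libraries of Hoxa6, and 15 of 16 of Hoxa4, exceeded both at 0 h. At 4 h they had log2 differences of 0.53 ± 0.27 (adjusted p = 0.182) for Hoxa6 and -0.01 ± 0.18 (adjusted p = 0.985) for Hoxa4. At 32 h the difference was 1.18 ± 0.27 (adjusted p = 0.00328) for Hoxa6 and 0.47 ± 0.18 (adjusted p = 0.0472) for Hoxa4. The Hoxa4 call at 32 h was lost in 12 of the 18 fits that left out 1 library, and was weakest without 0 h replicate 1. It was also lost with no filter on the mean (adjusted p = 0.0858) and with DESeq2 (0.110), so 14 of 28 alternatives lost it. At 16 h the Hoxa4 difference was 0.71 ± 0.18 (adjusted p = 0.00618), and it was lost only without 16 h replicate 1 (adjusted p = 0.0799, against 0.000664 to 0.0799 over all alternatives).

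Hoxa7, the 5′-most active HoxA gene, which acts in the thoracic region, was the only member called lower than at 0 h at any time. It had 109 and 108 normalized reads at 0 h, followed every 4 h by 70.7 and 85, 111 and 119.5, 126 and 110.2, 143 and 126, 169 and 132, 163 and 178, 149 and 167, and 182 and 164 at 32 h. Both libraries at 4 h lay below both at 0 h, and all 14 libraries from 8 h on lay above both at 4 h. The log2 difference was -0.48 ± 0.15 (adjusted p = 0.0308) at 4 h and 0.66 ± 0.15 (adjusted p = 0.00238) at 32 h. With no filter on the mean the adjusted p at 4 h was 0.0569, and the call was lost. The 4 h call was lost when replicate 1 of 0 h (adjusted p = 0.0828) or 4 h (0.216), or replicate 2 of 0 h (0.134), was left out, and with DESeq2 (0.0990), over a range of 0.0121 to 0.216 across the alternatives. Its antisense neighbour Hoxaas3 covers 28.8% of the transcript and was listed under its older symbol 2700086A05Rik. That RNA had 22.6 and 17.2 normalized reads at 32 h and 10.7 and 5.15 at 4 h, against 6.32 and 2.75 at 0 h, with a log2 difference of 1.98 ± 0.52 at 32 h (adjusted p = 0.00708). That call was lost without 32 h replicate 1 and, at the highest adjusted p of 0.0758, without 0 h replicate 2, over a range of 0.000267 to 0.0758. Hoxaas3 was also among the RNAs overlapping Hoxa3. Its part in the Hoxa7 and Hoxa3 values was not tested.

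**Figure D3:**
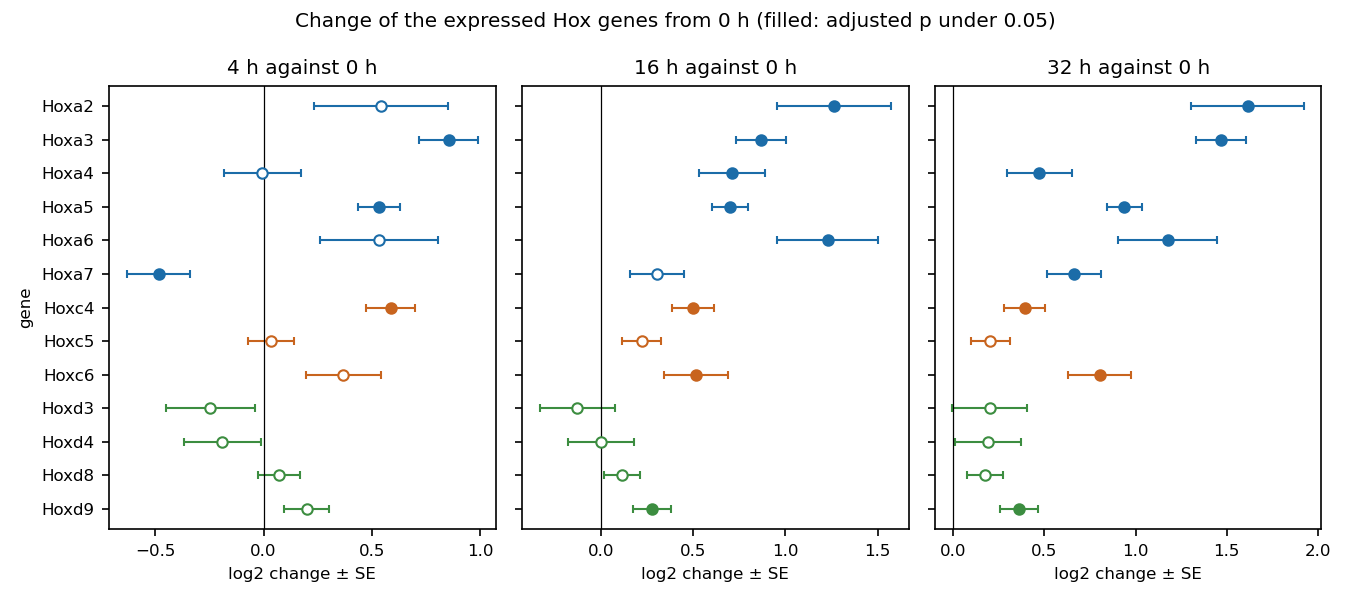
Log2 difference from 0 h of 13 active Hox genes at 4 h, 16 h and 32 h, with genes down the page in cluster order; points are limma estimates, bars are SE, filled points have an adjusted p under 0.05, and HoxA is blue, HoxC orange and HoxD green. At 32 h the 6 HoxA genes lie between 0.47 and 1.61 and the 4 HoxD genes between 0.17 and 0.36.

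Of the 3 active HoxC genes, Hoxc6 and Hoxc4 were called at 32 h. Hoxc6, a gene of the brachial and thoracic level, had 289.9 and 294 normalized reads at 0 h, followed every 4 h by 385 and 369, 393 and 324, 485 and 329.5, 454 and 385, 489.8 and 386, 444 and 495, 466 and 516, and 573 and 455 at 32 h. All 16 later libraries exceeded both at 0 h, and replicates 1 and 2 stood apart at 12 h and 32 h. Its log2 difference was 0.80 ± 0.17 (adjusted p = 0.00189) at 32 h, and 0.37 ± 0.17 (adjusted p = 0.146) at 4 h, where a fit with the replicate number as a block gave an adjusted p of 0.0323 (range over the alternatives 0.0323 to 0.357). Its call over the 9 times (adjusted p = 0.0208) was lost without 0 h replicate 1 (0.0781) or 0 h replicate 2 (0.0766), over a range of 0.000375 to 0.337. At 16 h its difference of 0.52 ± 0.17 (adjusted p = 0.0298) was lost when replicate 1 of 0 h (0.0987) or 16 h (0.193), or replicate 2 of 0 h (0.0934), was left out, over a range of 0.00262 to 0.193.

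Hoxc4, a gene of the neck and brachial level, was called at 4 h already. It had 226 and 204 normalized reads at 32 h and 229 and 264 at 4 h, against 162 and 165 at 0 h, and all 16 later libraries exceeded both at 0 h. No library from 8 h on exceeded both at 4 h. The log2 difference was 0.59 ± 0.11 (adjusted p = 0.00244) at 4 h and 0.39 ± 0.11 (adjusted p = 0.0119) at 32 h. The 32 h call was lost without 0 h replicate 1 (adjusted p = 0.0555) or 32 h replicate 1 (0.101), over a range of 0.000496 to 0.101, and the call over the 9 times (0.0128) without 0 h replicate 1 (0.0816) or 0 h replicate 2 (0.0704), over a range of 0.00174 to 0.618. Hoxc5, between them on the chromosome, had 251 and 239 at 32 h, against 215 and 210.1 at 0 h. Its difference of 0.20 ± 0.11 (adjusted p = 0.146) was not called, but passed under equal totals (0.00596, range 0.00596 to 0.386). Hoxc5 was called higher at 20 h, by 0.29 ± 0.11 (adjusted p = 0.0477), and at 24 h, by 0.30 ± 0.11 (adjusted p = 0.0422).

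Of the 4 active HoxD genes 1 was called at 32 h. Hoxd8, the member with the most reads, had 508 and 535 normalized reads at 0 h, followed every 4 h by 542 and 553, 555 and 569, 498 and 620.1, 529.9 and 601, 588 and 579, 547 and 619, 583 and 592, and 589 and 588 at 32 h. The 2 libraries at 32 h lay above both at 0 h, but the difference of 0.17 ± 0.10 (adjusted p = 0.176) was not called, and over the 9 times the adjusted p was 0.745. Under equal totals its 32 h difference was called (adjusted p = 0.00353, against a range of 0.00353 to 0.442).

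Hoxd9, a gene of the limbs and of the lumbar and sacral level and the 5′-most active member, was the only HoxD gene called at 32 h. It had 261 and 244 normalized reads at 32 h, against 198 and 195 at 0 h, and all 16 later libraries exceeded both at 0 h. The difference of 0.36 ± 0.10 (adjusted p = 0.0123) was lost without 32 h replicate 1 (adjusted p = 0.0918) or 0 h replicate 2 (0.0538), over a range of 0.000424 to 0.0918. At 16 h its call (adjusted p = 0.0497) was lost in 14 of 18 fits that left out 1 library, and was weakest without 16 h replicate 1. It was also lost with a pseudocount of 5 (adjusted p = 0.0502), with no filter on the mean (0.0800) and with DESeq2 (0.154). In all, 17 of 28 alternatives lost it. Over the 9 times Hoxd9 was not called (adjusted p = 0.0880) but passed with the replicate block (0.0373, range 0.00303 to 0.566).

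Hoxd3 and Hoxd4, which pattern the upper neck vertebrae in the mouse, had no called difference at any time. Hoxd3 had 108 and 96.1 normalized reads at 32 h, against 84 and 93.4 at 0 h, and Hoxd4 had 154 and 147 at 32 h, against 127 and 136 at 0 h. Of the 16 later libraries 5 exceeded both at 0 h for Hoxd3 and 7 for Hoxd4. The log2 differences at 32 h were 0.20 ± 0.20 (adjusted p = 0.465) and 0.19 ± 0.18 (adjusted p = 0.423), so with these SE a change of the size seen in Hoxd9 was not detectable.

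The shares of HoxA and HoxD in the Hox RNA stood apart between the start and the end of the course. Of the summed reads per kb of the 38 genes, HoxA took 34.0% and 36.1% at 32 h, against 25.9% and 27.0% at 0 h. HoxD took 28.8% and 30.1% at 32 h, against 38.2% and 38.1% at 0 h. A larger HoxA share leaves less for the other clusters, and in normalized reads no active HoxD gene had a lower mean at 32 h. Hoxd8 had a mean of 588 at 32 h against 522 at 0 h, Hoxd9 253 against 196, Hoxd4 150 against 132 and Hoxd3 102 against 88.7. Of these differences that of Hoxd9 alone was called. HoxC took 37.1% and 33.7% at 32 h, against 35.8% and 34.8% at 0 h, and HoxB averaged 0.0700% over all libraries. The HoxA and HoxD libraries of 32 h and 0 h did not overlap, while those of HoxC did. At 4 h HoxA took 28.7% and 27.9% and HoxD 33.4% and 33.1%, between the values of the start and the end. These shares were not tested. Over the 18 libraries the mean shares were 32.6% for HoxA, 35.7% for HoxC and 31.6% for HoxD. By normalized reads without length they were 28.1%, 33.3% and 38.5%, so the cluster with the highest share depends on the weighting. By normalized reads HoxA, at most 32.1%, lay below HoxD, at least 34.9%, in every library. A crossing of HoxA above HoxD therefore depends on the weighting too.

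**Figure D4:**
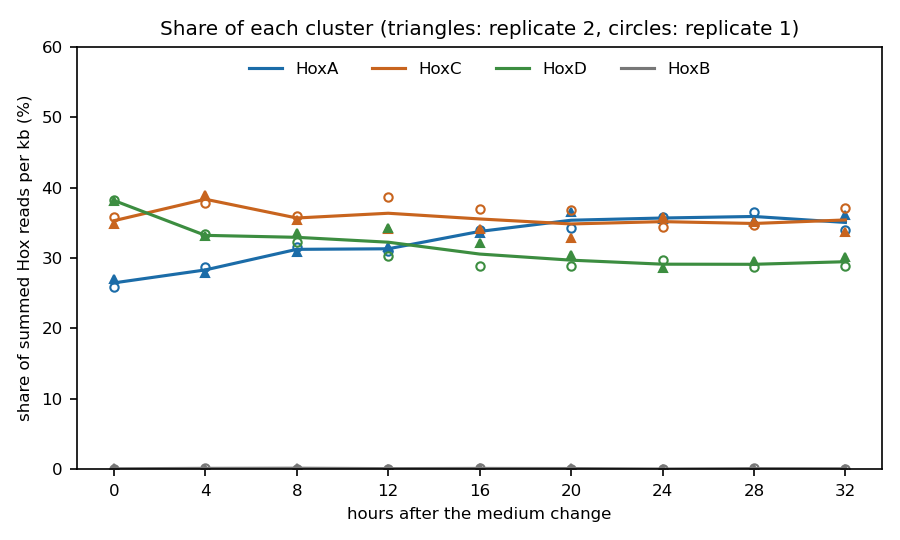
Share of the summed reads per kb of 38 Hox genes taken by each cluster, in percent, against hours after the medium change; lines are means of 2 libraries, triangles replicate 2 and circles replicate 1. HoxA lies below HoxD at 0 h, at 25.9% and 27.0%, and above it in both replicates from 16 h on, and HoxB lies at the axis. By normalized reads without length HoxA stayed below HoxD in every library.

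The series was designed around the circadian rhythm, and none of the 13 Hox genes tested for it passed. A cosine and sine of 24 h were fitted to each gene, and 0 of 13 members passed, against 0.371% of all genes in limma, so the count is near the background share. The 25 members with a mean below 10 were not tested. The adjusted p ranged from 0.348 for Hoxa4 to 0.981 for Hoxd8, 0 members had an unadjusted p under 0.05, and edgeR and DESeq2 also called 0. The main fit had no term for drift, so a steady change counted as spread and weakened the test. A fit with a linear term in time was among the alternatives. Over all alternatives the adjusted p of Hoxa4 ranged from 0.0513 to 0.596, and no member was called in any. The fitted peak-to-trough fold ran from 1.01 for Hoxd8 to 1.38 for Hoxa6. A linear drift beside the 24 h terms was called upward for 9 of 13 members and downward for 0, against 55.5% of all genes called, 28.2% upward and 27.3% downward. Without the libraries of 0 h and 4 h, again an alternative added later, 5 members were called upward: Hoxa2, Hoxa3, Hoxa5, Hoxa7 and Hoxc6.

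The drift was steepest in Hoxa2, at 1.12 ± 0.17 (adjusted p = 1.85e-05) log2 per 24 h. Hoxa6 followed with 0.88 ± 0.18 (adjusted p = 0.000387), Hoxa3 with 0.86 ± 0.12 (adjusted p = 1.49e-05) and Hoxa7 with 0.73 ± 0.10 (adjusted p = 1.1e-05). Hoxa5, Hoxc6 and Hoxa4 drifted by 0.56 ± 0.08, 0.52 ± 0.09 and 0.44 ± 0.10 log2 per 24 h, and Hoxd9 by 0.23 ± 0.06. Hoxc4, called at 4 h already, had a drift of 0.07 ± 0.10 (adjusted p = 0.558). Hoxc5 was called at 0.16 ± 0.06 (adjusted p = 0.0332), but not when replicate 1 of 0 h or 28 h was left out, nor replicate 2 of 0 h, 4 h or 24 h. The Hoxc5 call was also lost with DESeq2 (0.0513), with no filter on the mean (0.0523) and without both 0 h libraries (0.209). Its adjusted p ranged from 0.000922 to 0.845 over the alternatives. Hoxd8, at 0.12 ± 0.05 (adjusted p = 0.0554), was not called but passed in 7 of 31 alternatives. These were equal totals (adjusted p = 0.000269), TMM (0.0322), no variance trend (0.0456), the replicate block (0.0261) and edgeR (0.0346). The others were the fits without 24 h replicate 1 and without 12 h replicate 2. Its adjusted p ranged from 0.000269 to 0.589 over the alternatives.

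How far the 2 replicate series differed in Hox levels was asked with time as a term. Of 13 members, 2 were called, against 37.9% of all genes, 20.0% higher and 17.9% lower in replicate 2. Hoxa2 averaged 86.5 normalized reads in replicate 2 and 65.4 in replicate 1, was higher in replicate 2 at 8 of 9 times, and differed by 0.35 ± 0.11 (adjusted p = 0.0137) log2. Hoxc6 averaged 395 in replicate 2 and 442 in replicate 1 and differed by -0.16 ± 0.06 (adjusted p = 0.0413), a call lost in 10 of 18 fits that left out 1 library, the highest without 12 h replicate 1 (0.137, range 0.0135 to 0.137). Without either library of 0 h, Hoxa4 and Hoxa6 were called too, both lower in replicate 2, and the count was 4. The count was 1 without either library of 8 h, 12 h, 16 h or 32 h.

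**Figure D5:**
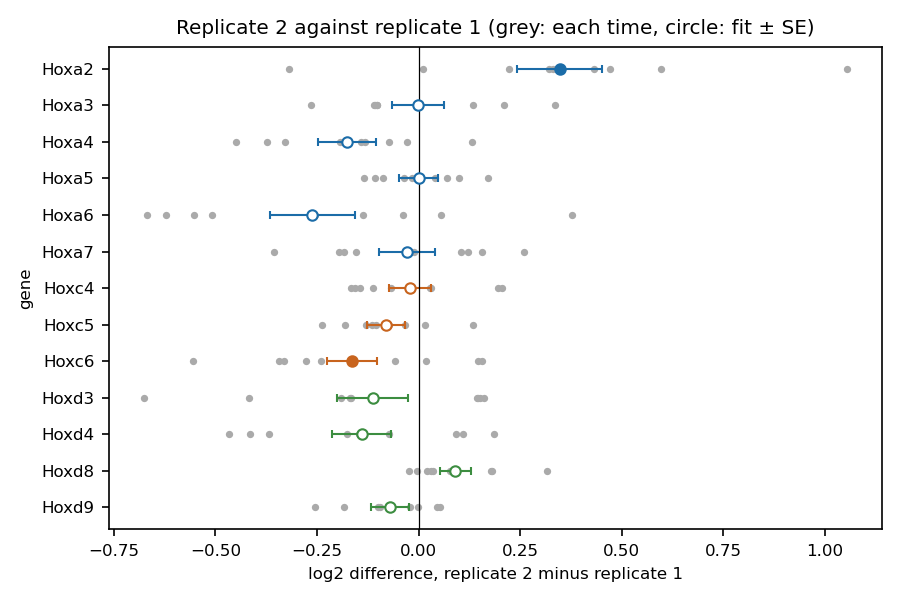
Log2 difference of replicate 2 minus replicate 1 for 13 active Hox genes, with genes down the page; grey dots are the 9 times, circles the limma estimate with SE, filled where the adjusted p is under 0.05, and colours mark clusters as in the other plots. Hoxa2 lies to the right at 0.35 and Hoxc6 to the left at -0.16.

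The cofactors and regulators of HOX proteins were followed as groups. Of 7 tested TALE cofactor genes described here, 6 differed among the times, against 52.0% of all genes, and at 32 h 3 were higher and 1 lower (20.5% and 20.4% of all genes), with a median of 0.22 log2. Meis1, the partner of many HOX proteins, had 1233 and 1273 normalized reads at 4 h and 1022 and 1015 at 32 h, against 595 and 577 at 0 h. The groups did not overlap, with a log2 difference of 1.10 ± 0.06 at 4 h (adjusted p = 4.62e-07). The gene called lower at 32 h was Meis3, of the same family, with a difference of -0.43 ± 0.09 (adjusted p = 0.00115).

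Of 28 Polycomb group genes, whose proteins keep Hox genes silent, 16 differed among the times, against 52.0% of all genes, and at 32 h 10 were higher and 4 lower (20.5% and 20.4% of all genes), with a median of 0.14 log2. Ezh2, the methyltransferase for H3K27, was higher at 32 h by 0.40 ± 0.08 (adjusted p = 0.000916), and Cbx6 by 0.48 ± 0.05 (2.91e-06), while Phc2 was lower, at -0.69 ± 0.09 (2.97e-05). Of 11 Trithorax and H3K27 demethylase genes, which act in the opposite direction, 5 differed, against 52.0% of all genes, with 4 higher and 2 lower at 32 h (20.5% and 20.4% of all genes) and a median of 0.14. Kdm6b, an H3K27 demethylase, had 2069.5 and 2004 normalized reads at 32 h, against 3301 and 3987 at 0 h, a log2 difference of -0.83 ± 0.14 (adjusted p = 0.000295). Kdm6a, the other H3K27 demethylase of the list, went the opposite way, with a difference of 0.45 ± 0.08 (adjusted p = 0.00028).

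Of 18 genes of the retinoic acid pathway, which sets Hox expression in embryos, 11 were tested and 5 differed among the times, against 52.0% of all genes, with 3 higher and 2 lower at 32 h (20.5% and 20.4% of all genes) and a median of 0.03 log2. The 2 lower were Rara, a retinoic acid receptor, with 1311 and 1333 at 32 h, against 1785 and 2194 at 0 h, and Rdh10, which makes retinal, with 771 and 784 at 32 h, against 1478 and 1419.7 at 0 h. Their log2 differences were -0.58 ± 0.10 (adjusted p = 0.000233) and -0.90 ± 0.12 (2.86e-05). The 3 higher were retinoid receptors. Rarb, with a mean of 12.6 reads, differed by 1.46 ± 0.38 (adjusted p = 0.00657), a call lost without 32 h replicate 2 (0.0566, range 0.00176 to 0.0566). Rxra differed by 0.35 ± 0.09 (0.00626), lost without 0 h replicate 1 (0.0622) or 32 h replicate 2 (0.0563), over a range of 6.03e-05 to 0.0622. Rarg differed by 0.27 ± 0.08 (adjusted p = 0.0106), lost without replicate 1 of 0 h (0.157) or of 32 h (0.0901), over a range of 0.000125 to 0.157.

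The 19 listed protein-coding neighbours lay 6.7 to 894 kb from the clusters. Of these, 15 were tested and 12 differed among the times, against 52.0% of all genes. At 32 h 2 were higher and 3 lower (20.5% and 20.4% of all genes), with a median of 0.07 log2. Evx1 and Evx2, homeobox genes at the 5′ ends of HoxA and HoxD, had no read in any library. Of the 3 lower, Skap1, 96.3 kb from HoxB and with a mean of 42.9 reads, had the largest difference. It was -0.93 ± 0.28 at 32 h (adjusted p = 0.0165), and this call was not followed over the alternatives. Lnp, on the other side of Evx2, differed by -0.26 ± 0.07 at 32 h (adjusted p = 0.0120) and Snx11, 399 kb from HoxB, by -0.34 ± 0.08 (0.00254). Both calls were lost under equal totals, at 0.644 for Lnp (range 0.00263 to 0.644) and 0.188 for Snx11 (range 0.000149 to 0.188), and that of Lnp also without 0 h replicate 1 (0.0660) or 32 h replicate 2 (0.0676). The 2 higher were Snx10, by 0.54 ± 0.12 (adjusted p = 0.00259), and Cbx5, by 0.25 ± 0.07 (0.0150), the second lost without 32 h replicate 1 (0.0942) or 0 h replicate 2 (0.123), over a range of 0.00015 to 0.123. All 6 ParaHox and Cdx genes had means below 10. Of the 8 listed non-coding RNAs of the clusters, 2700086A05Rik alone was tested.

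Of 31 other positional transcription factors of fibroblasts, 15 were tested and 12 differed among the times, against 52.0% of all genes, with 6 higher and 3 lower at 32 h (20.5% and 20.4% of all genes) and a median of 0.20 log2. Tbx15, a limb and skin factor, had 2701 and 3033 normalized reads at 32 h, against 1264 and 1427 at 0 h, a log2 difference of 1.09 ± 0.13 (adjusted p = 1.1e-05). Tbx3, a limb factor, had 482 and 401 at 32 h, against 962 and 986 at 0 h, a difference of -1.14 ± 0.16 (adjusted p = 5.15e-05). No gene of any of these lists passed the 24 h rhythm test.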

How the data were processed

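RNA of 18 NIH3T3 libraries was measured by single-end sequencing. The authors deposited 1 signal value per gene and library, a read count per gene divided by a factor per library; per the submitters' processing notes TopHat, HTSeq and DESeq were used with build mm9, and versions, strand setting and annotation are not given in the sources used here. Multiplying by factors of 0.728 to 1.16, recovered from the values, gave whole reads within 0.02 for 100% of values. Coordinates, lengths, neighbours and promoters come from a later build (GRCm38, GENCODE transcripts matched to RefSeq), and depth was 25.4 to 38.9 M reads per library.

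The 12393 genes that averaged 10 or more normalized reads entered limma 3.58.1 (R 4.3.3) on log2(value + 1), with a variance trend, all 18 libraries, time as groups, and an adjusted p threshold of 0.05 over all tested genes. Rhythm was the moderated F of a 24 h cosine and sine, and drift the coefficient of time beside them, given per 24 h; replicate 2 was compared with replicate 1 with time as a term. Alternatives were pseudocounts of 0.5 and 5, no filter or a mean of at least 50, equal totals, TMM and no trend. A replicate block and each library left out were others. For the rhythm, periods of 22 and 26 h and an added linear term in time were tried, and for the drift time alone. The count tools edgeR 4.0.16 and DESeq2 1.42.0 were also run on whole reads. At 4 h against 0 h edgeR called 2491 and DESeq2 2404 genes, and limma 2664. Where a time kept 1 library, the spread of the other times stood for its own. Results of 1 Hox gene and 1 cofactor gene are not reported here; both stayed in the fits but out of every count, sum and share of members or lists. The other members with a mean of at least 10 are all named, with the 3 highest of the others. Up to 4 genes of each list with the smallest p over the 9 times were picked, of which a few are given with values. Hoxa9, Hoxb2, Hoxb3, Hoxd1, Hoxd10, Evx1, Evx2, Rarb, Snx10, Cbx5, Phc2 and Skap1 were named after their values were seen. The members and lists were chosen with earlier results of these data known. One listed non-coding RNA, 6530401N04Rik, was left out because RefSeq gives its symbol to a gene on another chromosome.

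Replicate numbers pair the libraries: libraries with the same number departed from the mean of their time together in all 36 pairs of times (Pearson's r 0.230 to 0.502, median 0.345), though the labels state no source. The main fits over time had no replicate term, so their p-values leave this pairing out. Counts from a fit with a replicate block are given below. The simulated data used to check the fits had independent libraries without this pairing, so they cannot show how the pairing affects the p-values.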

Additional observations from a re-analysis of the deposited data

How the results depend on the processing

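Apart from the comparison of replicates, counts of called Hox genes moved beyond 1.5-fold in few alternatives. Over the 9 times, 8 members became 4 without both 0 h libraries and 3 (Hoxa3, Hoxa5 and Hoxa7) without 0 h and 4 h, and the drift count of 9 became 5 without 0 h and 4 h; these were chosen after seeing the data. The 2 calls between replicates became 1 without a filter and 4 under equal totals. Leaving out 1 library gave 6 to 9 members over the 9 times, 3 to 4 at 4 h, 5 to 8 at 16 h, 6 to 9 at 32 h, 0 to 0 for the rhythm, 8 to 10 for drift and 1 to 4 between replicates. With the replicate block, 9 members passed over the 9 times, 5 at 4 h, 8 at 16 h, 9 at 32 h, 0 for the rhythm and 10 for drift. Under equal totals 11 passed over the 9 times, 11 at 16 h, 11 at 32 h and 12 for drift. Over all genes, the rhythm was called for 46 genes by limma, 37 by edgeR and 556 by DESeq2, with 0 members in each.

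Of 5138 alternative values of members and listed genes, 4878 kept direction and side of the threshold. Of the others, 48 changed sign with neither value past the threshold, 160 lost the call, 50 gained one and 2 reversed. The reversed ones were Atp5g2, a gene 250 kb from HoxC, at 0.21 log2 at 32 h under equal totals, and the drift of Hoxc5, at -0.0288 without 0 h and 4 h. The cause was not tested. With 2 libraries per time, differences of up to 0.79 log2 (Hoxa2 at 8 h, adjusted p = 0.0610) were not called; for genes at 0 the limit is 3 reads over the series.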
